A study of Homo sapiens with 5 samples.

Results

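The ATF3 gene is the gene that encodes the stress-induced transcription factor ATF3, and its binding by ATF3 itself and by p53 was read here from 5 lists of ChIP-seq peaks. The peaks were those whose centre lay between 20 kb upstream of the transcription start site (TSS) of ATF3 and the end of the gene, followed by those in the 100 kb on either side. ATF3 (ENSG00000162772) lies on the plus strand of chromosome 1 at 212738676 to 212794119 (GRCh37, the build of hg19), the TSS of its canonical transcript is at 212782103, and the region therefore ran from 212762103 to 212794119. It held 13 of the 123989 peaks in the 5 lists, at 6 distinct sites, and a further 23 peaks at 20 sites lay in the 100 kb on either side.

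All 5 libraries came from HCT116, a human colon cancer cell line, and chromatin was crosslinked first in 1 mM DSG (45 min) and then in 1% formaldehyde (10 min). An ATF3 antibody was used on ATF3-WT cells that had received DMSO (ATF3-Ctrl), on ATF3-WT cells given 1.5 μM of the DNA-damaging agent camptothecin for 4 h (ATF3-CPT) and on ATF3-KO cells that had received DMSO (ATF3-KO). A p53 antibody was used on cells with wild-type p53 given the same dose of camptothecin (p53-CPT) and on p53-KO cells that had received DMSO (p53-KO). Each group was 1 library without a replicate, so the values below compare libraries and their intervals cover counting error only. ATF3-KO was 1 line made by homologous recombination in exon 3 with a recombinant adeno-associated virus, p53-CPT and p53-KO differed in genotype and in treatment, and no ATF3-KO library with camptothecin and no p53 library from wild-type cells without camptothecin were compared. Peak lists do not measure whether the deleted part of exon 3 was present, so the genotype of ATF3-KO was not checked at its own gene.

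ATF3 belongs to the basic leucine zipper (bZIP) proteins, which bind DNA as dimers. It recognises the ATF/CRE core TGACGTCA and, mostly in company with Jun proteins, the AP-1 cores TGACTCA and TGAGTCA, and it has long been described as a repressor of its own gene. p53 is the tetrameric factor activated by DNA damage. It binds a pair of adjacent 10-base units, each with a core such as CATG, and ATF3 is among the genes known to be induced along with the p53 response.

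The libraries held 12947516 (ATF3-Ctrl), 15457013 (ATF3-CPT), 12820520 (ATF3-KO), 3169743 (p53-CPT) and 1984941 (p53-KO) tags, of which 5.6%, 12.76%, 0.56%, 7.2% and 9.01% lay in peaks. Binding is given as the normalized tag count, the tags at a peak per 10000000 tags of the library, with the exact 95% Poisson interval where a value is discussed. The findPeaks score, which counts at most 1 tag per position and is not scaled to depth, was used for ranks. A site had to reach a score of 9, 9, 11, 7 and 6, respectively, to be listed. The same numbers of tags correspond to normalized tag counts of 6.95, 5.82, 8.58, 22.1 and 30.2. The threshold acted on the score, and the lowest normalized tag counts listed were 5.4, 4.5, 6.2, 18.9 and 25.2. A site missing from a list was under the authors' thresholds and was not shown to be unbound.

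The sequences of 5 sites are shown because the cores that they hold, or lack, bear on the binding described afterwards. All are the plus strand of GRCh37 with exact cores in capitals, except that at both promoters the capitals mark an ATF/CRE core with 1 mismatch. At the site 12.3 kb upstream the capitals mark the AP-1 core and, further on, the stretch that the study's supplement prints as p53 motif instances, located here in the reference.
Promoter, chr1:212781990-212782102: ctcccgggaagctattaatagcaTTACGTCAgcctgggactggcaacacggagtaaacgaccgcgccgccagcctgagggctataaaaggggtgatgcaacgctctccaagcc
12.3 kb upstream, chr1:212769757-212769925: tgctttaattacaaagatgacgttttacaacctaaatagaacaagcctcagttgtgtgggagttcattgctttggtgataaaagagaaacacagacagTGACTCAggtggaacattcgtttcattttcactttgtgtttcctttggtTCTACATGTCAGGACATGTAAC
41.5 kb upstream, chr1:212740565-212740689: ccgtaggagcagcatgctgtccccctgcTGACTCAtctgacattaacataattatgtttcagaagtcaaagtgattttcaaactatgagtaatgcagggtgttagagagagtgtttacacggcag
Upstream promoter, chr1:212738552-212738675: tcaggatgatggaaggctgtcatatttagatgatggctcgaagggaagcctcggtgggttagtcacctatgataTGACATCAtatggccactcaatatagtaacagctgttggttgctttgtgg
49.7 kb upstream, chr1:212732344-212732484: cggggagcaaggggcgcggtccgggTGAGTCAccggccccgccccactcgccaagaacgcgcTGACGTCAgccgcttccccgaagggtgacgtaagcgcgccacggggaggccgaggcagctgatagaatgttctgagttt

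The promoter of ATF3 was the strongest ATF3 site of the region in both libraries from ATF3-WT cells. In ATF3-Ctrl, the peak covered 212782019 to 212782145 centred 21 bp before the TSS, and the normalized tag count was 313.6 (283.8 to 345.6). In ATF3-CPT, the peak covered 212781990 to 212782114 centred 51 bp before it, and the normalized tag count was 278.8 (253.1 to 306.4). The peaks overlapped by 96 bp, and both ran from just upstream of the TSS into the first bases of exon 1, which is noncoding. No ATF3-KO, p53-CPT or p53-KO peak overlapped the site, and no ATF3-KO peak lay anywhere in the region or in the 100 kb on either side. Of all ATF3-Ctrl peaks, 5.38% had a counterpart in ATF3-KO.

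The scores of the promoter peaks were 189 in ATF3-Ctrl and 198 in ATF3-CPT, and they ranked 14.5 of 33966 and 17.5 of 70702 peaks. The score has a ceiling, since peaks of these widths have 254 and 250 positions on both strands. By normalized tag count, the promoter ranked 38 and 23. Only 3 of 20163 protein-coding genes had a higher summed ATF3-Ctrl signal within 2 kb of their TSS, and 2 had a higher one in ATF3-CPT. The promoter made up 85.5% of the summed signal of the region in ATF3-Ctrl and 74.7% in ATF3-CPT.

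Neither promoter peak held an exact match to the ATF/CRE or AP-1 cores. The nearest match was TTACGTCA at 212782013 to 212782020, whose ends lay 90 and 83 bp upstream of the TSS and which departs from the ATF/CRE core by the substitution G2T, counted from the first base of the core. It was inside the ATF3-CPT peak and lay across the edge of the ATF3-Ctrl peak. Exact ATF/CRE or AP-1 cores were found in 32.8% of all ATF3-Ctrl peaks and 41.9% of all ATF3-CPT peaks, and an ATF/CRE core with at most 1 mismatch in 12.7% and 14.2%.

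Camptothecin was compared with DMSO at the sites that both ATF3 lists shared. Of the 5 ATF3-Ctrl peaks in the region 3 had an ATF3-CPT counterpart, against 79.8% of all ATF3-Ctrl peaks, and of the 4 ATF3-CPT peaks 3 had an ATF3-Ctrl counterpart, against 38.3%. At the promoter, the ratio of ATF3-CPT to ATF3-Ctrl was 0.889 (0.775 to 1.02), an interval that includes 1. The median ratio over all 27104 shared sites was 1.79, with quartiles of 1.12 and 2.63, and 14.7% of them had a lower ratio than the ATF3 promoter.

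Shared sites that were high in ATF3-Ctrl mostly had low ratios, although few of them were as high as the ATF3 promoter. Among the 338 shared sites with an ATF3-Ctrl value of at least 100, a group that was set after the values had been seen and that is chosen on the denominator of the ratio, the median ratio was 0.750. Among the 71 of these within 2 kb of a TSS it was 0.784, and 71.8% of them had a lower ratio than the ATF3 promoter. When the score was used in place of the normalized tag count, the ratio at the promoter was 1.05. By normalized tag count, the promoter ratio relative to the median of all shared sites was 0.495.

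The shared sites further upstream had higher ratios than the promoter. The site 49.7 kb upstream had 39.4 (29.3 to 51.8) in ATF3-Ctrl and 146.2 (127.8 to 166.6) in ATF3-CPT, a ratio of 3.71 (2.73 to 5.13). The site 41.5 kb upstream had 17.8 (11.3 to 26.7) and 51.8 (41.0 to 64.4), a ratio of 2.91 (1.81 to 4.86). The site 12.8 kb upstream had 10.8 (5.91 to 18.1) and 23.3 (16.3 to 32.2), a ratio of 2.15 (1.13 to 4.32). In these 3 the interval of the ratio lay above 1, and at the first and the second it also lay above the median of all shared sites, at the second by little (1.81 against 1.79). In coding exon 2, 6.3 kb downstream of the TSS, the values were 14.7 (8.84 to 22.9) and 7.8 (4.01 to 13.6), a ratio of 0.529 (0.234 to 1.15). Scaled to the tags in peaks of each library instead of all tags, the ratio was 1.63 at the site 49.7 kb upstream, 1.28 at 41.5 kb, 0.945 at 12.8 kb, 0.390 at the promoter and 0.232 in exon 2. Ratios of at least 2 were seen at 43.6% of all shared sites and ratios of at most 0.5 at 2.37%.

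**Figure D1:**
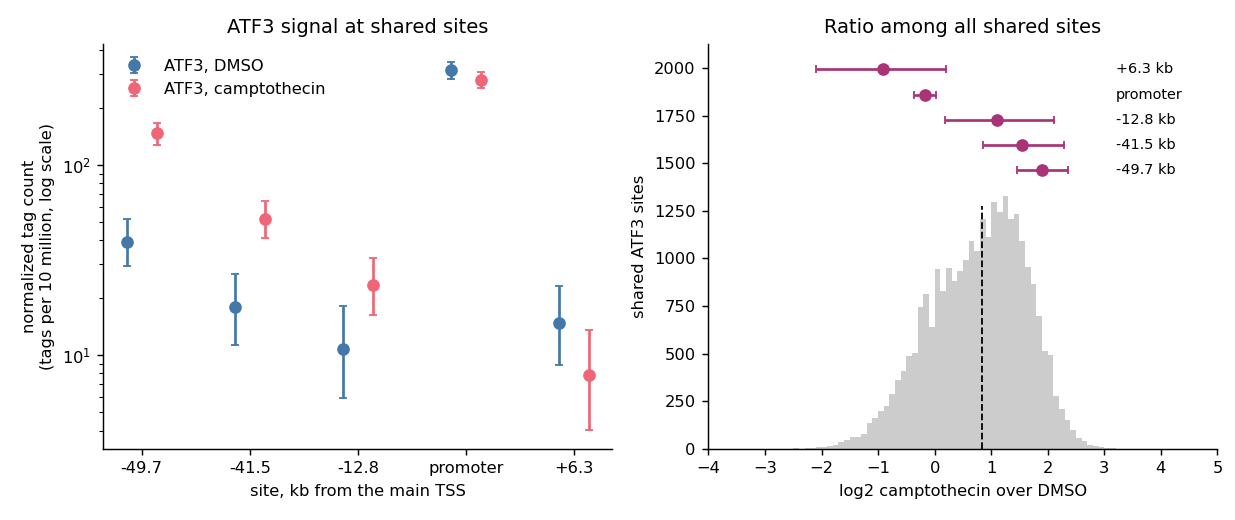
Left, normalized tag counts (log scale) with exact 95% Poisson intervals at the 5 sites around ATF3 shared by ATF3-Ctrl and ATF3-CPT. Right, their ratios with exact 95% conditional intervals above the distribution over all 27104 shared sites, whose median of 1.79 is the dashed line. The promoter, at 0.889, lies to the left of the dashed line and the sites 49.7 and 41.5 kb upstream, at 3.71 and 2.91, to its right.

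Summed over the region, the ATF3 signal was 366.9 in ATF3-Ctrl and 373.3 in ATF3-CPT. Without the promoter, the sums were 53.3 and 94.5. In the 100 kb upstream of the region they were 81.1 from 4 peaks and 319.7 from 9 peaks. In the 100 kb downstream, 0 peaks were listed in ATF3-Ctrl and 7 in ATF3-CPT, with a sum of 62.8. The signal at the promoter was of like size in both libraries, while the listed signal upstream of it and downstream of the gene was larger in ATF3-CPT. In the coding exons it was not larger, with 14.7 in ATF3-Ctrl against 7.8 in ATF3-CPT in exon 2. In exon 4, 9.3 was listed in ATF3-Ctrl and no peak in ATF3-CPT. The share of all tags in peaks was also larger in ATF3-CPT (12.76% against 5.6%), and its part in the values away from the promoter was not tested.

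**Figure D2:**
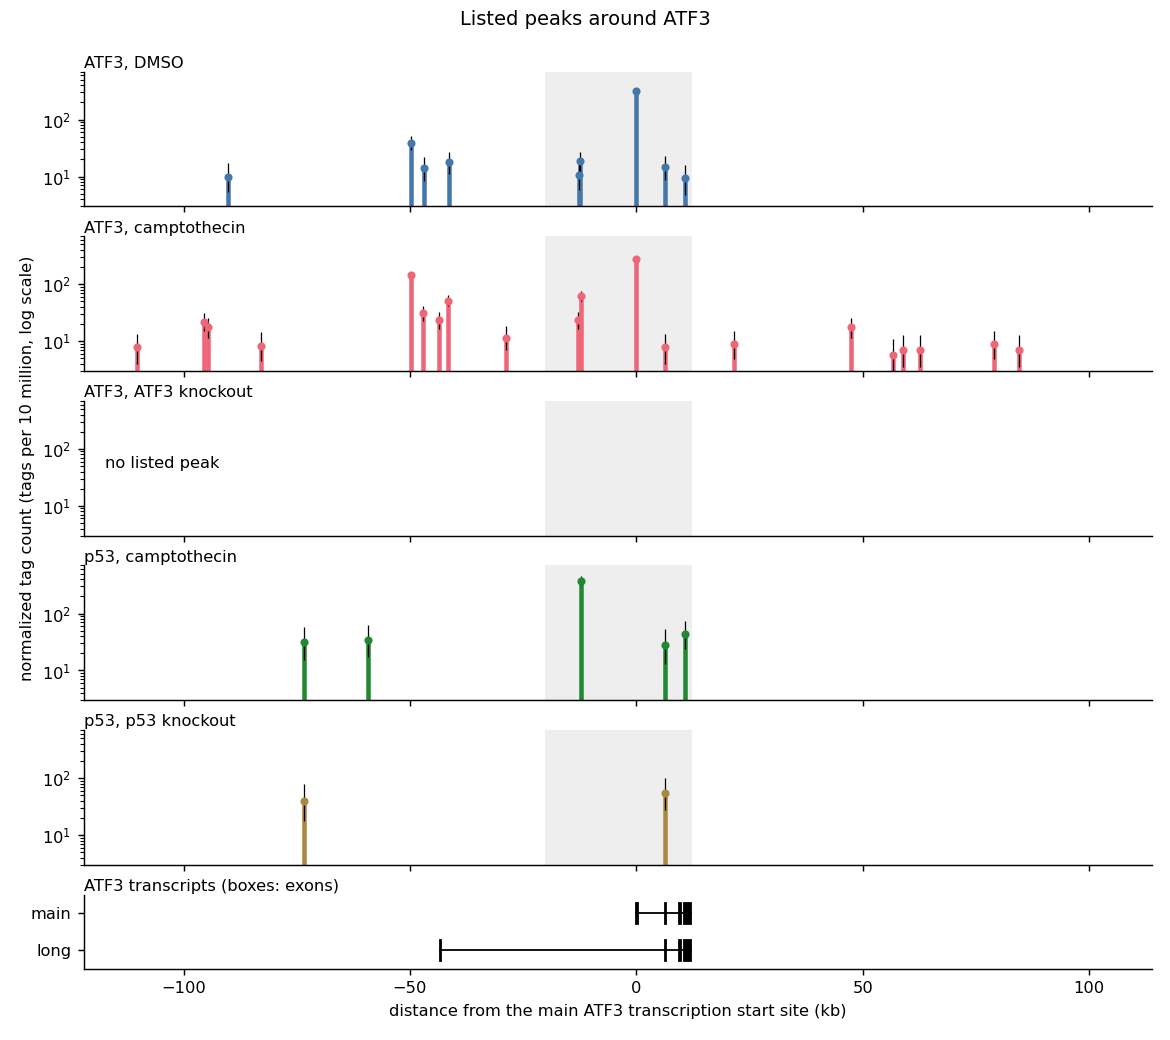
Normalized tag count (log scale, exact 95% Poisson intervals) of each listed peak in the 5 libraries, by distance of its centre from the main TSS, with the region shaded and the exons of the main and the long transcript below. The promoter at 0 kb stands at 313.6 in ATF3-Ctrl and 278.8 in ATF3-CPT, the p53-CPT peak 12.2 kb upstream stands at 375.4, and the ATF3-KO row is empty.

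p53 was bound at a single strong site in the region, within intron 1 of the long transcript, which starts 43427 bp upstream of the main TSS. The p53-CPT peak covered 212769757 to 212770075, its centre lay 12.2 kb upstream of the main TSS, and its normalized tag count was 375.4 (311.0 to 449.3), 90.58 times the local background. Its score of 89 ranked 120.5 of 9211 p53-CPT peaks. There was no p53-KO peak at the site. Of all p53-CPT peaks, 60.9% had a counterpart in p53-KO, and among the 3600 that had none the site ranked 49, with a median score of 9 in that group. The lowest normalized tag count listed in p53-KO, 25.2, was far under the value in p53-CPT.

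ATF3 was listed at the same place after camptothecin. The ATF3-CPT peak covered 212769772 to 212769896, and its normalized tag count was 63.4 (51.5 to 77.3). All 125 bp of it lay within the p53-CPT peak, with the centres 82 bp apart. Of all ATF3-CPT peaks, 1.38% overlapped a p53-CPT peak, and of all p53-CPT peaks 10.5% overlapped an ATF3-CPT peak. Of the 683 p53-CPT peaks that overlapped an ATF3-CPT peak and no p53-KO peak, 14 had a higher score than the one at ATF3.

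The DNA of this site held an exact AP-1 core and CATG cores of the kind found in p53 units, but no full p53 motif by the rule used here. The AP-1 core TGACTCA lay at 212769855 to 212769861, its midpoint 24 bp from the centre of the ATF3-CPT peak, and exact AP-1 cores were present in 40.6% of all ATF3-CPT peaks. The full p53 motif of 20 bases was not found with at most 3 mismatches in any of the 13 peaks, against 20.3% of all p53-CPT peaks and 4.69% of all p53-KO peaks. The study's supplement lists p53 motif instances at this site, in the capitals near the end of the sequence above. By the pattern used here the best match in the peak had 4 mismatches, which 39.3% of all p53-CPT peaks reached or bettered. That match lay outside the stretch of the supplement. In the 200 bp around the peak centre, which hold this stretch, the best match had 5 mismatches. A pair of CATG cores separated by 6 bases, CATGTCAGGACATG, lay at 212769908 to 212769921, and its midpoint was 1.5 bp from the centre of the p53-CPT peak. This pattern, CATGNNNNNNCATG, was searched after the first search had found no motif, and it was present in 8.14% of all p53-CPT peaks, 1.24% of all p53-KO peaks and 0.903% of all ATF3-CPT peaks. The AP-1 core and the CATG pair were 46 bp apart, and the pair lay outside the ATF3-CPT peak, beginning 12 bp past its end. An exact AP-1 or ATF/CRE core together with the CATG pair was seen in 0.727% of all p53-CPT peaks and 0.619% of all ATF3-CPT peaks. The ATF3-CPT peak 78.9 kb downstream of the main TSS (9.1) also held an exact AP-1 core and the pair, and no p53-CPT peak overlapped it. A match is a description of the sequence and not a measurement of binding.

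In ATF3-Ctrl, no peak overlapped the ATF3-CPT or p53-CPT peak. A weaker one lay beside them at 212769602 to 212769728, 12.4 kb upstream, with a normalized tag count of 18.5 (11.9 to 27.6). It was 43 bp from the ATF3-CPT peak and 28 bp from the p53-CPT peak, and it held no exact AP-1 or ATF/CRE core but an exact p53 unit of 10 bases, GAACATGTTT, which 2.86% of all ATF3-Ctrl peaks held. Another exact unit, GAACAAGCCT at 212769795 to 212769804, lay inside both the ATF3-CPT and the p53-CPT peak, and 3.09% of all ATF3-CPT peaks and 16.3% of all p53-CPT peaks held such a unit. The centre of the ATF3-Ctrl peak was 169 bp from that of the ATF3-CPT peak. Since the authors' caller kept peaks of 1 list at least 252 bp (ATF3-Ctrl) or 248 bp (ATF3-CPT) apart, neither list could hold both, so gain of the one and loss of the other cannot be told apart from a shift of the called summit. With centres within 200 bp counted as counterparts, these peaks were joined, and 4 of the 5 ATF3-Ctrl peaks of the region then had an ATF3-CPT counterpart.

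**Figure D3:**
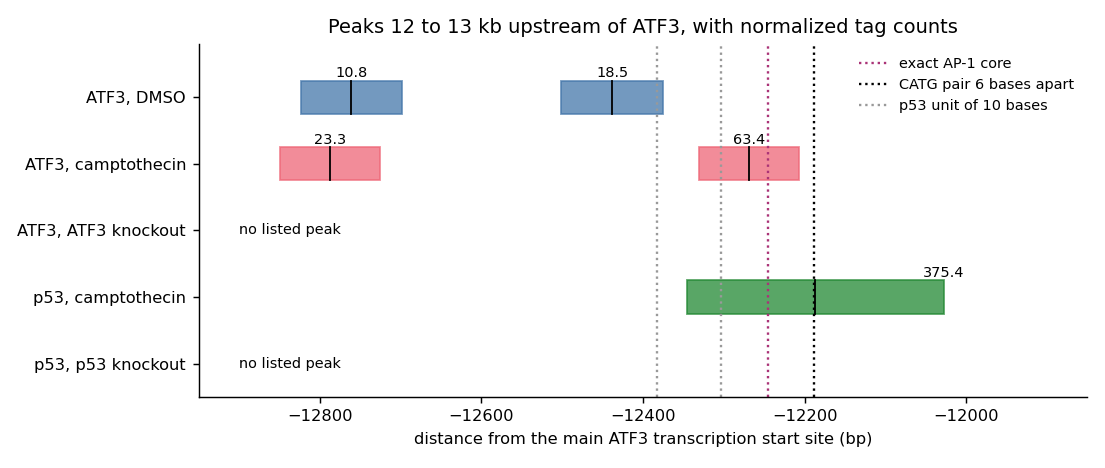
Extent of each listed peak between 12 and 13 kb upstream of the main TSS in the 5 libraries (bars, with the centre as a black line and the normalized tag count above), with the positions of sequence matches as dotted lines. The CATG pair falls on the centre of the p53-CPT peak (375.4), and the AP-1 core falls within both this peak and the ATF3-CPT peak (63.4).

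A further ATF3 site 12.8 kb upstream, in the same intron, was shared by both ATF3 libraries (212769279 to 212769405 in ATF3-Ctrl and 212769254 to 212769378 in ATF3-CPT, overlapping by 100 bp). It held no core with fewer than 2 mismatches. No p53 peak overlapped it.

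Both remaining sites of the region lay in coding exons, and p53 was listed there together with ATF3. In exon 2, peaks of 4 lists overlapped, and the normalized tag counts were 14.7 in ATF3-Ctrl, 7.8 in ATF3-CPT, 28.4 (12.98 to 53.9) in p53-CPT and 55.4 (27.7 to 99.2) in p53-KO. The p53-KO value was no lower than that of p53-CPT, and their intervals overlapped. Of all p53-KO peaks, 3.69% overlapped an ATF3-Ctrl peak. Of all p53-CPT peaks, 2.15% overlapped peaks of ATF3-Ctrl, ATF3-CPT and p53-KO at once.

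In exon 4, which holds the end of the coding sequence, an ATF3-Ctrl peak at 212792726 to 212792852 had 9.3 (4.79 to 16.2) and a p53-CPT peak at 212792675 to 212792993 had 44.2 (24.1 to 74.1). Neither ATF3-CPT nor p53-KO was listed there. The p53-CPT interval reached below 25.2, the lowest value listed in p53-KO, so that a difference between these libraries was not detectable at this depth. Only 80 of 9211 p53-CPT peaks overlapped an ATF3-Ctrl peak but no ATF3-CPT peak, and 50 of these, like the one in exon 4, overlapped no p53-KO peak. No exon peak held an exact AP-1 or ATF/CRE core. As at the site 12.2 kb upstream, the p53-CPT peak in exon 2 held an exact p53 unit of 10 bases. Both peaks in exon 4 had a best match to the full p53 motif with 4 mismatches, as the upstream p53-CPT peak had.

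Peaks centred in coding exons were uncommon in the p53 lists. They made up 0.529% of p53-CPT peaks (48 of 9082 on chromosomes 1 to 22, X and Y) and 0.206% of p53-KO peaks (16 of 7768), against 2.19% of ATF3-Ctrl and 2.14% of ATF3-CPT peaks. ATF3 held 2 of the 48. The other gene with 2 was MUC6, a mucin, named here after its count had been seen.

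The 100 kb upstream of the region, where ATF3 was the nearest protein-coding gene for the peaks up to 82.8 kb from its TSS, contained the strongest ATF3 site outside the promoter. It lay 49.7 kb upstream of the main TSS and, in ATF3-CPT, 6270 bp upstream of the TSS of the long transcript. It was within the noncoding gene RP11-61J19.4, at 212732344 to 212732468 in ATF3-CPT and 212732358 to 212732484 in ATF3-Ctrl. The TSS of another gene, ENSG00000288007, was closer, 299 bp from the centre in ATF3-CPT and 284 bp in ATF3-Ctrl. The rank of the site by score was 1801.5 of 33966 in ATF3-Ctrl and 176 of 70702 in ATF3-CPT. Its sequence held both an exact ATF/CRE core (212732406 to 212732413) and an exact AP-1 core (212732369 to 212732375), as did 0.116% of all ATF3-Ctrl peaks and 0.0940% of all ATF3-CPT peaks. A further ATF/CRE match, TGACGTAA with the substitution C7A, lay at 212732431 to 212732438. No p53 peak overlapped this site.

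At the upstream promoter, the TSS of the long transcript at 212738676, an ATF3 peak was listed only in ATF3-CPT. It covered 212738552 to 212738676 with 23.3 (16.3 to 32.2), its centre 62 bp upstream of that TSS, and the nearest ATF3-Ctrl peak was 1898 bp away. The sequence there held TGACATCA at 212738626 to 212738633, which departs from the ATF/CRE core by G5A. In ATF3-Ctrl, a site with a score under 9 would not have been listed, and the lowest normalized tag count listed was 5.4. The site 41.5 kb upstream, in intron 1 of the long transcript, held an exact AP-1 core, TGACTCA, at 212740593 to 212740599.

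Of the other upstream sites, one 47.2 kb upstream in ATF3-CPT (31.1, with an exact AP-1 core) lay 84 bp from a site 47.0 kb upstream in ATF3-Ctrl (13.9, without one), at a centre distance of 210 bp, again too close for both to be listed in 1 library. The rest were lower. ATF3-CPT had 5 more peaks of at least 7.8, each under the 23.3 at the upstream promoter and 3 of them above the median of all ATF3-CPT peaks (11.0), and ATF3-Ctrl had 1 more with 10.0. p53-CPT was listed 73.3 kb upstream (31.5), where p53-KO was listed as well (40.3), and 59.3 kb upstream (34.7), without a counterpart in any other list. Downstream of the gene, the 7 ATF3-CPT peaks had 5.8 to 17.5, and the nearest TSS was that of GARIN4 for 2 of them and that of BATF3, which encodes another bZIP factor, for 5.

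Among the regions of all 20163 protein-coding genes, drawn by the same rule, ATF3 stood out more by the size of its signal than by its number of peaks. It had 5 ATF3-Ctrl peaks (735 genes had more) and 4 ATF3-CPT peaks (4046 had more), but by summed normalized tag count only 22 and 194 genes were higher. In p53-CPT, 110 genes had more than its 3 peaks and 78 had a higher sum than its 448.0. When peaks were counted per 10 kb of region, the rank of ATF3 in p53-CPT was 10. The 3 peaks include the one in exon 2 that was also listed in p53-KO. At a score of at least 20 only 1 peak was left, and the rank by number of peaks was 615.

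The genes whose sums over the 5 lists were most like those of ATF3, by Euclidean distance of log2(sum + 1), were APBB2 (0.726), FER1L6 (1.28), RUNX1 (1.45), CASZ1 (1.57), ENSG00000284956 (1.65), PRKCE (1.84), CAMK1D (1.92), PTPN14 (1.92), PIK3C2B (1.92) and CEP112 (1.95). The median distance over 20162 genes was 12.2. All 10 had 0 in ATF3-KO and between 25.2 and 120.9 in p53-KO, as ATF3 had 55.4, and without the p53-KO and ATF3-KO lists only 1 of them, APBB2, remained among the nearest 10. APBB2 had 16 ATF3-Ctrl and 26 ATF3-CPT peaks where ATF3 had 5 and 4.

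A site of the kind found 12.2 kb upstream of ATF3, that is, a p53-CPT peak that overlapped an ATF3-CPT peak and no p53-KO peak, was present in the regions of 2.59% of protein-coding genes. In the ATF/CREB family, to which ATF3 belongs, 0 of the 15 other members listed had one. So few genes cannot be set apart from a share of 2.59%. Of these members, 11 had an ATF3-Ctrl peak and 14 an ATF3-CPT peak. The highest ATF3-CPT sums were those of CREB5 (407.6), BATF2 (131.4), ATF1 (108.7) and ATF6 (102.3), and CREB5 had 164.0 in p53-CPT and 181.4 in p53-KO. Among the AP-1 partners, all 7 genes had peaks in both ATF3 libraries, with FOSB (272.4), FOSL1 (249.6), FOSL2 (146.2) and JUND (145.5) the highest in ATF3-CPT, and FOSL1 alone had such a joint site. Peaks were present in ATF3-Ctrl at 64.0% and in ATF3-CPT at 80.3% of all genes.

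Of 24 established p53 targets, 22 had a p53-CPT peak, against 20.8% of all genes, and 9 had a joint site. A p53-CPT peak without a p53-KO counterpart was present at 21 of the 24, and at 2107 of all 20163 genes. The p53-CPT sum of ATF3, 448.0, of which 375.4 came from the site 12.2 kb upstream, lay between that of GADD45A, a growth arrest gene (466.9), and that of BBC3, which encodes the apoptotic protein PUMA (337.6). CDKN1A, which encodes the cell cycle inhibitor p21, had 1145.2, and RRM2B, a ribonucleotide reductase subunit, had 306.0 and no joint site. At the promoter, no member of the 3 lists had a higher ATF3 signal than ATF3 in either library. Among these p53 targets GADD45A had 85.0 and 115.2 there, and CDKN1A had 26.2 and 57.6, whereas ATF3 had 313.6 and 278.8.

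**Figure D4:**
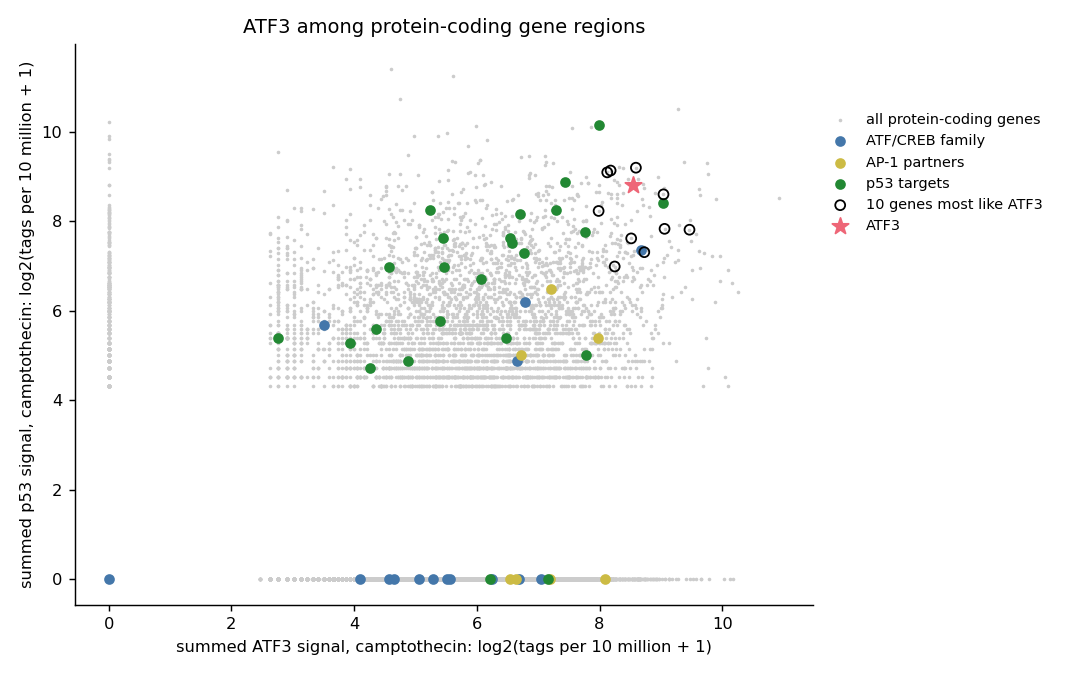
Summed signal of ATF3-CPT (x axis) against p53-CPT (y axis) over the region of each protein-coding gene, both as log2(tags per 10000000 + 1), with ATF3 (star), the 3 gene lists and the 10 genes most like ATF3 marked. ATF3, at sums of 373.3 and 448.0, lies in the upper right, where few of the 20163 genes lie.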

How the data were processed

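HCT116 ATF3 and p53 ChIP-seq was measured in 5 libraries, 1 per group. Per the submitters' notes, reads were aligned to hg19 with BWA 0.6.1 and peaks were called with HOMER 4.1 in each library separately, with no input control given in the file headers, under HOMER's settings of FDR 0.001 and, against the local 10 kb, 4-fold and p 1e-04. The normalized tag count, as deposited, is signal that the authors scaled to 10000000 tags. The deposited score, by the authors' caller, counts at most 1 tag per position. The authors also deposited a fold ratio to the surrounding 10 kb and its p-value, a clonal fold ratio and a focus ratio (a fraction of tags), of which only the first is given for 1 peak.

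Whole tags were recovered from the normalized tag counts (100% of values within rounding) and gave exact 95% Poisson intervals. Ratios of ATF3-CPT to ATF3-Ctrl have exact conditional binomial intervals. Totals of 1984941 to 15457013 tags set the precision, and p53 values are the least precise. No p-value was computed, since there were no replicates. Peaks were counterparts when they overlapped by at least 1 bp. Genes came from GENCODE 44 mapped to GRCh37, with all peaks inside its chromosome lengths. Motifs were searched on both strands, and a p53 motif had at most 3 mismatches. Every peak of the region is given, flank peaks are named by the nearest protein-coding TSS, the 10 nearest genes by distance over the 5 lists are named, and from each gene list the 4 members with the highest ATF3-CPT sums (p53 targets: p53-CPT sums). The members, lists and tests were chosen with earlier results of these data known. Scripts were tested on simulated data, and 10 of 10 checks passed. Python 3.11.15, numpy 2.4.6, pandas 2.3.3 and scipy 1.17.1 were used. Alternatives covered the region, scores, overlap, scaling, ranks and motif rules.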

Additional observations from a re-analysis of the deposited data

How the results depend on the processing

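Of 60 alternatives, 24 left the value within its interval or within 1.5 times, 35 moved it further and 1 turned a ratio whose interval excluded 1 to the other side of 1. Regions: the 13 peaks became 22 from 20 kb upstream of the most upstream TSS, 8 from 10 kb upstream, 2 within 2 kb of the TSS and 6 at a score of at least 20. The 23 flanking peaks became 9 at that score and 13 within 50 kb. Over 7 pairs of lists, the 11 counterparts became 7 when 50% of a peak's length had to overlap and 3 at a score of at least 20. Scaling: the promoter ratio of 0.889 became 1.05 by score, 0.495 relative to the median ratio, 0.390 relative to tags in peaks and 1.13 relative to the median of high promoter sites (the last added after seeing the data), so that 2 of these lay on the other side of 1, which the interval of the ratio includes. Relative to tags in peaks, the ratio 12.8 kb upstream turned from 2.15 to 0.945 and that in exon 2 from 0.529 to 0.232, since this scaling divides every ratio by 2.28. Relative to the median and to tags in peaks, the ratios 49.7 kb upstream (2.07 and 1.63) and 41.5 kb upstream (1.62 and 1.28) stayed above 1, alternatives that were added after seeing the data.

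Ranks: the highest peak of the region ranked 38 in ATF3-Ctrl by normalized tag count, and 9 in ATF3-Ctrl and 49 in p53-CPT without peaks of the knockout list. For the number of peaks per gene, the rank in ATF3-Ctrl was 976.5 by the region, 4443.5 within 2 kb of the TSS and 173 per 10 kb. In ATF3-CPT it was 5035 by the region, 2385.5 for 20 kb upstream, 2398 at a score of at least 20 and 1704 per 10 kb. In p53-CPT it was 193 by the region, 10379.5 within 2 kb of the TSS, 855 for 20 kb upstream, 615 at a score of at least 20 and 10 per 10 kb. Cores: exact AP-1 or ATF/CRE cores were in 2 of the 13 peaks, and in 8 with 1 mismatch. The p53 motif was in 0 peaks, in 4 with 4 mismatches and in 1 as the CATG pair, both added after seeing the data. Of the 10 genes most like ATF3, 6 were shared by score, 5 by the highest peak and 1 without the knockout lists. No paired analysis was possible because each group was 1 library, and for the same reason none could be left out of a group. Depth limits the p53 lists most, where 1 tag was worth 3.15 (p53-CPT) and 5.04 (p53-KO).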

Other observations

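The peaks centred in coding exons of the p53-KO list, 16 in all, were named after the list had been read. Besides ATF3 (55.4), they included peaks in histone genes such as H3C10 (125.9) and H2BC4 (70.5), in MLLT3 (120.9), DACH1 (65.5), MUC6 (35.3) and ANKLE1 (35.3), and in members of the GOLGA6L family, which are near-identical copies whose reads cannot be assigned with certainty.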
